A study of Mus musculus with 2 samples.

Results

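The primitive endoderm cells of the mouse blastocyst of embryonic day 4.5 were taken from 1 single-cell RNA library of dissociated whole embryos of the strain B6C3F1. Each cell was scored by the summed unique molecular identifiers (UMIs, counted RNA molecules) of 5 primitive endoderm genes (Gata4, Gata6, Sox17, Pdgfra, Foxq1), 7 epiblast genes (Nanog, Tdgf1, Sox2, Fgf4, Gdf3, Klf2, Trh) and 4 trophectoderm genes (Krt18, Tspan8, Dppa1, Gata3). A cell counted as primitive endoderm (PrE) with a PrE score of at least 5 that was also at least 2 times each of the other scores. This gave 425 PrE cells, 38.7% (95% exact interval 35.8 to 41.7) of the 1097 blastocyst barcodes kept and part of the 6425 barcodes kept in the series. Scored alike, 252 blastocyst cells were epiblast (23.0%) and 374 trophectoderm (34.1%), and 46 had no class.

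The series holds a second library, of embryoids, which are aggregates of Lifeact-RFPruby embryonic stem (ES) cells and XTE cells reprogrammed from Gata6-H2B:Venus ES cells. The ES cells had been kept with PD0325901, CHIR99021 and Lif, and the XTE cells with CHIR99021, BMP4, Fgf4, heparin and Activin. Aggregates of 10000 ES cells and 50000 to 80000 XTE cells were grown for 48 h in AggreWell plates and 48 h in cell-repellent plates. Both samples were dissociated with TrypLE, and BD Rhapsody whole transcriptome libraries were made from 6000 cells each. How many embryos or aggregates were pooled is not given, cells with and without Y-linked RNA are mixed in the blastocyst library, and the embryoid has no strain label. With 1 library of each kind no test between conditions is possible, so every interval covers counting error only and says nothing of the spread between embryos.

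Primitive endoderm is the layer of the late blastocyst that lines the cavity beneath the epiblast. It separates from the epiblast under FGF signalling from epiblast cells, depends on GATA and SOX transcription factors and on the PDGF receptor, and later gives rise to parietal endoderm, which lays down a thick basement membrane, and to visceral endoderm, which takes up nutrients.

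The median PrE cell had 9645 UMIs and 3555 detected genes, with 9.38% of UMIs from mitochondrial genes. Epiblast cells had a median of 9921 UMIs and trophectoderm cells 8653. The 5 marker genes chose the cells, so their levels are a description. The PrE score ran from 5 to 124 with a median of 31. The epiblast score had a median of 1 and was 0 in 199 PrE cells, and the trophectoderm score was 0 in 363 and at most 3. Of cells that otherwise met the rule, 5 had a PrE score of 3 and 5 a score of 4, just outside, while 7, 6 and 8 had scores of 5, 6 and 7, just inside. When each marker was left out of the rule in turn, 401 to 422 cells were still chosen. The marker left out then stood in those cells at 670 CPM for Gata4, 706 for Gata6, 369 for Sox17, 413 for Pdgfra and 1274 for Foxq1 (CPM, UMIs per 1000000 of the summed profile). Gata6 was the marker least confined to PrE cells: a UMI of it was found in 95.6% of PrE cells, 9.49% of epiblast cells and 68.2% of trophectoderm cells.

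Markers outside the rule were read in the same cells. All 14 further primitive endoderm markers were highest in PrE cells and summed to 20127 CPM, against 1215 CPM in epiblast and 1324 CPM in trophectoderm cells. Of single PrE cells the lowest held 2466 CPM of them, within the range of epiblast cells (0 to 6903) and of trophectoderm cells (0 to 4842), and the median PrE cell held 19318 CPM. The 8 further epiblast markers summed to 301 CPM in PrE cells, against 1746 in epiblast cells. Foxd3 was at 0 UMIs in PrE cells, while 2 of the 8 were highest in PrE cells, Fgf5 at 4.21 CPM in PrE cells, against 2.64 CPM in epiblast cells and 0.278 CPM in trophectoderm cells, and Pou3f1 at 7.43 CPM in PrE cells, against 3.78 CPM in epiblast cells and 2.78 CPM in trophectoderm cells. The 10 further trophectoderm markers summed to 140.4 CPM in PrE cells, against 4901 in trophectoderm cells. Of 10 blood or maternal markers only 4 had a UMI in the blastocyst library, so most could not differ between classes. The 4 summed to 13.9 CPM in PrE cells, against 75.2 CPM in epiblast cells and 1.67 CPM in trophectoderm cells, most of it Pecam1, and 1 of them, Lyz2, was highest in PrE cells, with 1 UMI.

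Genes were compared as the log2 ratio of PrE over the other class. Of 8284 genes with a mean of at least 10 CPM over the 3 classes, 14.1% were at least 2-fold higher in PrE than in epiblast cells and 9.57% at least 2-fold lower. Against trophectoderm cells 21.4% were at least 2-fold higher and 10.3% lower. Higher than both were 5.93% and lower than both 2.72%. The counts given for gene lists are to be read against these shares and are a description, since a gene that reached the mean only through its level in PrE cells had to differ. The median gene stood at 0.04 over epiblast and at 0.39 over trophectoderm cells, so ratios over trophectoderm are to be read against 0.39. Of the genes at least 2-fold apart from trophectoderm, 67.6% were higher by totals, 46.8% after median of ratios scaling and 50.2% after TMM scaling.

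The 15 genes furthest above both other lineages are of several kinds and are given first. Cubn, the cubilin receptor of absorptive epithelia, was at 389.7 CPM in PrE cells, against 0.378 CPM in epiblast cells and 0.556 CPM in trophectoderm cells. Its log2 ratio was 10.01 (7.53 to 15.32) over epiblast cells, where 1 UMI was found, and 9.45 (7.60 to 12.50) over trophectoderm cells, where 2 were found. Amn, the partner that carries cubilin to the cell surface, was at 556 CPM in PrE cells, against 7.18 CPM in epiblast cells and 2.50 CPM in trophectoderm cells. Both parts of this receptor had few UMIs outside PrE cells.

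Srgn, the core protein of the proteoglycan serglycin, was at 1418 CPM in PrE cells, against 9.44 CPM in epiblast cells and 3.06 CPM in trophectoderm cells, with a ratio of 7.23 (6.67 to 7.86) over epiblast cells. Flrt3, a transmembrane adhesion protein, was at 698 CPM in PrE cells, against 5.29 CPM in epiblast cells and 0.835 CPM in trophectoderm cells. Dkk1, a secreted Wnt inhibitor, was at 494 CPM in PrE cells, against 5.66 CPM in epiblast cells and 3.62 CPM in trophectoderm cells. These genes were in nearly every PrE cell or in most of them: after thinning each cell to 5000 UMIs, Srgn was seen in 97.3% of thinned PrE cells, 3.56% of epiblast cells and 1.61% of trophectoderm cells, and Dkk1 in 75.8% of thinned PrE cells, 2.67% of epiblast cells and 1.61% of trophectoderm cells. The thinned set held 331 PrE, 225 epiblast and 311 trophectoderm cells, and left out 94, 27 and 63 shallower ones. Without thinning, the shares in PrE cells were 95.8% for Srgn, 88.7% for Flrt3 and 79.3% for Dkk1.

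Among membrane proteins, the water channel Aqp8 was at 301 CPM in PrE cells, against 2.27 CPM in epiblast cells and 1.95 CPM in trophectoderm cells. Pth1r, a receptor of the parathyroid hormone family, was at 151 CPM in PrE cells, against 0.755 CPM in epiblast cells and 0.556 CPM in trophectoderm cells, and Ramp2, a partner of calcitonin-type receptors, at 113 CPM in PrE cells, against 1.13 CPM in epiblast cells and 0.835 CPM in trophectoderm cells. Stra6, the receptor for retinol bound to its carrier, was at 92.4 CPM in PrE cells, at least 81.5-fold above epiblast cells, where it had 0 UMIs, and 8.37 on the log2 scale above trophectoderm cells. Spink3, a secreted trypsin inhibitor, was at 78.5 CPM in PrE cells, against 0.378 CPM in epiblast cells and 0.278 CPM in trophectoderm cells. It was found in few PrE cells, 17.5% after thinning.

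Among transcription factors, Foxa2 was at 112 CPM in PrE cells, against 0.378 CPM in epiblast cells and 0.278 CPM in trophectoderm cells, and Sox7, a relative of Sox17, at 113 CPM in PrE cells, against 1.13 CPM in epiblast cells and 0.556 CPM in trophectoderm cells. Tfec, of the MiT family, was at 70.3 CPM in PrE cells, at least 62.1-fold above epiblast cells, where it had 0 UMIs, and 7.98 on the log2 scale above trophectoderm cells. Of 20 endoderm transcription factors outside the rule 12 passed the level filter, with 7 higher and 3 lower than in epiblast cells, beside 14.1% and 9.57% of all genes tested, and a median of 1.26. Against trophectoderm cells 7 were higher and 3 lower, beside 21.4% and 10.3% of all genes tested, with a median of 1.59. Hhex was at 82.7 CPM in PrE cells, against 15.9 CPM in epiblast cells and 5.56 CPM in trophectoderm cells. Hnf4a was at 28.2 CPM in PrE cells, against 3.02 CPM in epiblast cells and 0.278 CPM in trophectoderm cells. Otx2, a factor of the anterior endoderm that the epiblast also uses, was at 2.48 CPM in PrE cells, against 147 CPM in epiblast cells and 0.835 CPM in trophectoderm cells, and Foxa1, Foxa3 and Gata5 were each under 10 CPM in PrE cells.

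Upstream sequences of Cubn, Flrt3 and Tfec are shown because GATA4 and GATA6 recognise the core GATA and these genes stood far above both other lineages. Each is the 250 bases before the gene's start on its own strand, from RefSeq on GRCm38.p6. Capitals mark matches on either strand to AGATAA or AGATAG, and likewise to TGATAA or TGATAG. The windows are chr2:13491877-13492126 (minus strand) for Cubn, chr2:140671477-140671726 (minus strand) for Flrt3 and chr6:16898442-16898691 (minus strand) for Tfec.
Cubn: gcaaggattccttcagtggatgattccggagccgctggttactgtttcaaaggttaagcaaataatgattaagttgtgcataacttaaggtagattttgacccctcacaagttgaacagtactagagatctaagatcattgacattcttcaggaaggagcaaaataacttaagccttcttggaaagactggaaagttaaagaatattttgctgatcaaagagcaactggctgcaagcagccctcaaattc
Flrt3: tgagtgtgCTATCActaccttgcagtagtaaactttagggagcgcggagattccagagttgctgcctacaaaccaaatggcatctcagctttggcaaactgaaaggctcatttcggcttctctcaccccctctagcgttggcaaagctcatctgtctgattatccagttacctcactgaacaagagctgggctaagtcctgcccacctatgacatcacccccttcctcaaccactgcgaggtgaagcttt
Tfec: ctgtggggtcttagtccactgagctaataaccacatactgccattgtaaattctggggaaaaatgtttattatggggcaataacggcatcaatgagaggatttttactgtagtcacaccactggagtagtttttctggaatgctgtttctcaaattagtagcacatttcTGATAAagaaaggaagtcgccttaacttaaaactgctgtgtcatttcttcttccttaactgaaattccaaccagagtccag
A match begins 242 bases before the start of Flrt3 and 81 bases before that of Tfec, and none is in the Cubn window. Of the 15 genes named as highest 12 had a window, and of their 20 windows 4 held a match, 20%. Of all 32851 RefSeq windows of this length 26.5% held one, so the windows of the named genes did not hold it more often. By gene, 4 of the 12 held a match in a window (33.3%), and the share over all genes was not computed. No match says only that these letters are not in this window.

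**Figure D1:**
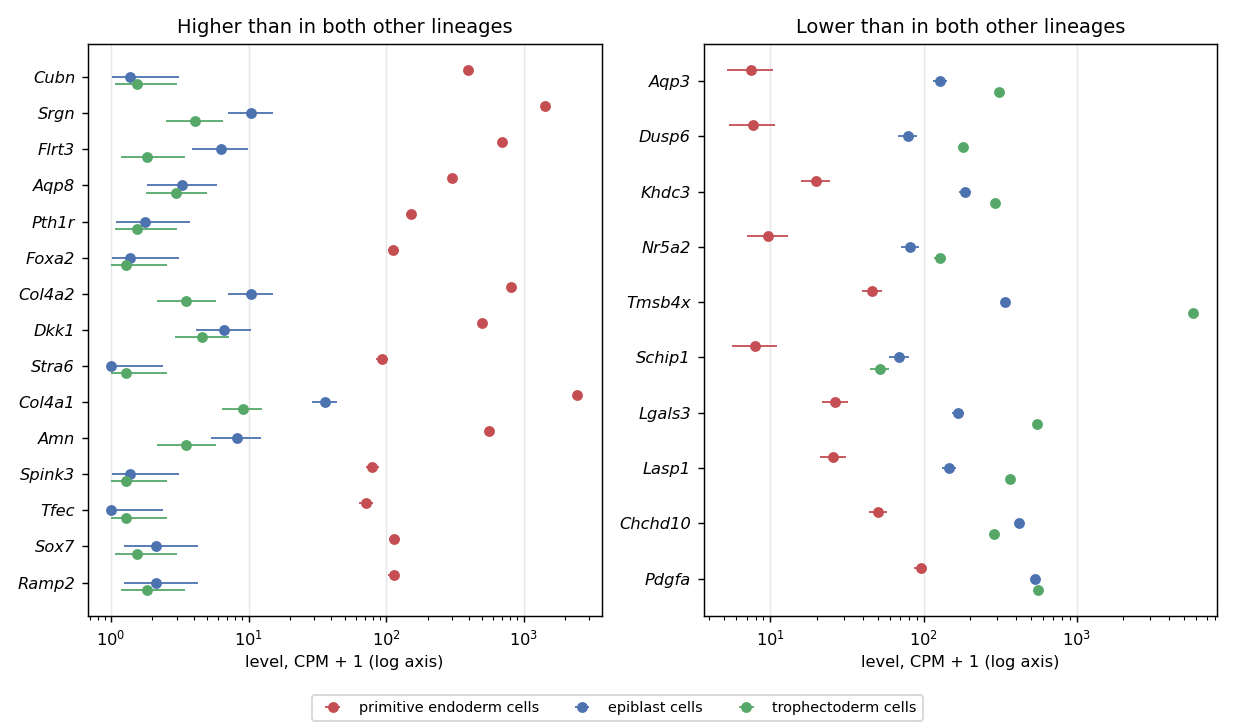
Level in CPM + 1 on a log axis of the 15 genes furthest above and the 10 furthest below both other lineages, in PrE (red), epiblast (blue) and trophectoderm cells (green) of the blastocyst; points are summed profiles and bars exact 95% counting intervals. In the left panel the PrE points stand apart from both others in all 15 genes.

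The basement membrane genes Col4a1, Col4a2, Lama1 and Lamb1 stood far higher in PrE cells than in either other lineage. Col4a1 and Col4a2 encode the chains of the main type IV collagen. Col4a1 was at 2441 CPM in PrE cells, against 34.7 CPM in epiblast cells and 8.07 CPM in trophectoderm cells, and Col4a2 at 802 CPM in PrE cells, against 9.44 CPM in epiblast cells and 2.50 CPM in trophectoderm cells. The log2 ratio of Col4a1 was 6.13 (5.84 to 6.45) over epiblast and 8.24 (7.72 to 8.82) over trophectoderm cells. The genes lie head to head on chromosome 8, where the annotated first bases of Col4a2 (11312805, plus strand) and Col4a1 (11312826, minus strand) leave 22 shared bases, and across 331 PrE cells their UMIs had a Spearman correlation of 0.41.

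The laminin chains of embryonic basement membrane were high as well. Lama1 was at 996 CPM in PrE cells, against 32.1 CPM in epiblast cells and 11.7 CPM in trophectoderm cells. Lamb1 was at 1604 CPM in PrE cells, against 39.3 CPM in epiblast cells and 23.4 CPM in trophectoderm cells, and Lamc1 at 2153 CPM in PrE cells, against 288 CPM in epiblast cells and 62.9 CPM in trophectoderm cells. Hspg2, which encodes perlecan, was at 254 CPM in PrE cells, against 25.3 CPM in epiblast cells and 7.51 CPM in trophectoderm cells. Sparc, which binds collagen IV, was at 6438 CPM in PrE cells, against 668 CPM in epiblast cells and 67.9 CPM in trophectoderm cells. The chains of other laminins and collagens were not high: Lama5 was at 53.2 CPM in PrE cells, 91.4 CPM in epiblast cells and 78.5 CPM in trophectoderm cells, and Col18a1 at 1.98 CPM in PrE cells, 48.3 CPM in epiblast cells and 0.278 CPM in trophectoderm cells. Fn1, fibronectin, was lower than in epiblast cells, at 25.0 CPM in PrE cells, against 490.2 CPM in epiblast cells and 1.95 CPM in trophectoderm cells. Of 30 genes on the basement membrane list 21 passed the filter, with 10 higher and 4 lower than in epiblast cells (median 0.74) and 12 higher and 1 lower than in trophectoderm cells (median 1.59).

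Genes for folding and exporting collagen were mostly higher in PrE cells. Of 26 listed genes 17 passed the filter, of which 14 were higher and 0 lower than in epiblast cells, beside 14.1% and 9.57% of all genes tested (median 2.23). All 17 were higher than in trophectoderm cells, beside 21.4% of all genes tested (median 2.67). Some of them, such as Plod1 and Creb3l2, passed the filter only through their level in PrE cells. Serpinh1, the collagen chaperone, was at 2814 CPM in PrE cells, against 115 CPM in epiblast cells and 5.56 CPM in trophectoderm cells. P4ha2, a prolyl hydroxylase subunit, was at 375 CPM in PrE cells, against 2.64 CPM in epiblast cells and 37.6 CPM in trophectoderm cells, and Plod2, a lysyl hydroxylase, at 656 CPM in PrE cells, against 29.1 CPM in epiblast cells and 1.67 CPM in trophectoderm cells. Hspa5, the main chaperone of the endoplasmic reticulum, was at 2465 CPM in PrE cells, against 928 CPM in epiblast cells and 425 CPM in trophectoderm cells, and Creb3l2, a membrane-bound factor that induces secretory genes, at 102 CPM in PrE cells, against 7.93 CPM in epiblast cells and 2.50 CPM in trophectoderm cells.

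Other uptake genes were also found in trophectoderm cells, at a like level for Dab2 and a lower one for Lrp2 and Lrpap1. Dab2, the adaptor of cubilin and megalin in clathrin-coated pits, was at 1255 CPM in PrE cells, against 11.3 CPM in epiblast cells and 1004 CPM in trophectoderm cells. Lrp2, which encodes megalin, was at 281 CPM in PrE cells, against 4.53 CPM in epiblast cells and 134 CPM in trophectoderm cells, and its chaperone Lrpap1 at 839 CPM in PrE cells, against 102 CPM in epiblast cells and 189.7 CPM in trophectoderm cells. Of 16 uptake genes 13 passed, with 9 higher and 0 lower than in epiblast cells and 7 higher and 1 lower than in trophectoderm cells; the medians were 1.54 and 1.05. Lysosome genes had medians of 0.73 and 0.13, with 7 of 20 higher and 2 lower than in epiblast cells and 5 higher and 4 lower than in trophectoderm cells; the shares lower than epiblast and higher than trophectoderm were near those of all genes tested (9.57% and 21.4%). Ctsl, a secreted and lysosomal protease, was at 2253 CPM in PrE cells, against 297 CPM in epiblast cells and 338 CPM in trophectoderm cells, and Psap, the saposin precursor, at 239 CPM in PrE cells, against 253 CPM in epiblast cells and 6569.9 CPM in trophectoderm cells.

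Genes of both later endoderm types were read. Of 19 parietal endoderm genes 12 passed, with 10 higher and 1 lower against each of the other lineages (medians 4.63 and 6.37). Of all genes tested, 14.1% were higher and 9.57% lower than in epiblast cells, and 21.4% and 10.3% than in trophectoderm cells. Some genes passed the filter only through their level in PrE cells and so had to be higher. Stra6 and Pth1r are such genes on the parietal list, and Spink3 on the visceral list that follows. F3, tissue factor, was at 87.2 CPM in PrE cells, against 3.02 CPM in epiblast cells and 6.40 CPM in trophectoderm cells, and Tfpi, its inhibitor, at 688 CPM in PrE cells, against 142 CPM in epiblast cells and 6.96 CPM in trophectoderm cells. Of 24 visceral endoderm genes 10 passed, with 7 higher and 0 lower than in epiblast cells and 8 higher and 1 lower than in trophectoderm cells (medians 2.51 and 1.71). Those that did not pass include the plasma proteins of later visceral endoderm: Afp, Apoa1, Apoa4 and Trf were at 0 UMIs in PrE cells, Ttr at 1.49 CPM and Rbp4 at 0.248 CPM. S100g, a calcium-binding protein, was at 31.9 CPM in PrE cells, against 0 CPM in epiblast cells and 0.556 CPM in trophectoderm cells. It was seen in 10.9% of thinned PrE cells.

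**Figure D2:**
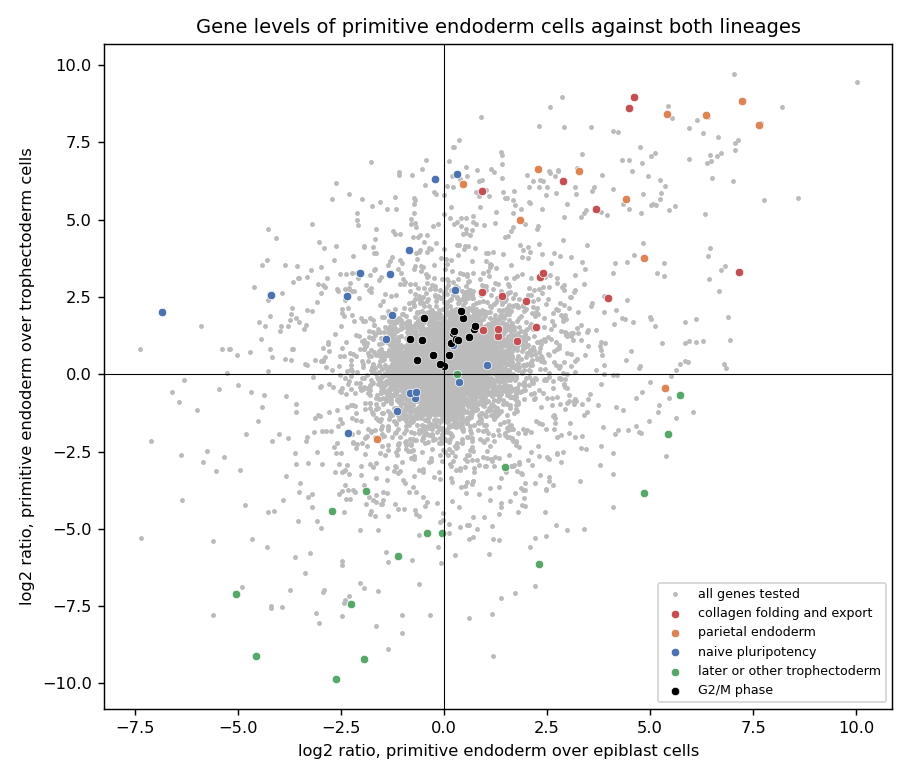
Log2 ratio of PrE over trophectoderm cells (vertical) against PrE over epiblast cells (horizontal) for 8284 genes (grey), with 5 gene lists in colour; a profile with 0 UMIs is set to a floor of 3 UMIs, so such genes stand at a bound. Collagen folding (red) and most parietal endoderm genes (orange) lie at the upper right, most trophectoderm genes (green) in the lower part, and G2/M genes (black) near 0 over epiblast cells.

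The receptors and ligands of FGF signalling were divided among the lineages. Fgfr2 was at 199 CPM in PrE cells, against 3.78 CPM in epiblast cells and 317 CPM in trophectoderm cells, and its log2 ratios were 5.72 (4.83 to 6.78) and -0.67 (-0.80 to -0.54). Fgfr3 was at 39.9 CPM in PrE cells, against 0.378 CPM in epiblast cells and 0.278 CPM in trophectoderm cells, and Klb, the coreceptor beta-Klotho, at 67.6 CPM in PrE cells, against 3.40 CPM in epiblast cells and 0.556 CPM in trophectoderm cells. Fgfr1 went the other way, at 27.2 CPM in PrE cells, against 84.2 CPM in epiblast cells and 115 CPM in trophectoderm cells. PrE cells thus held more Fgfr2, Fgfr3 and Klb RNA and less Fgfr1 RNA than epiblast cells.

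Of the ligands, Fgf4, a gene of the rule, had 1 UMI in all PrE cells, while 83.7% of epiblast cells had one before thinning. Fgf10 was at 354 CPM in PrE cells, against 46.8 CPM in epiblast cells and 1.39 CPM in trophectoderm cells, with a UMI in 72.5% of thinned PrE cells, 22.2% of epiblast cells and 0% of trophectoderm cells. Fgf3 was at 18.3 CPM in PrE cells, against 1.89 CPM in epiblast cells and 0 CPM in trophectoderm cells. Of 17 FGF genes 9 passed, with 6 higher and 1 lower than in epiblast cells (median 2.64). Against trophectoderm cells 3 were higher and 2 lower (median -0.24). Of all genes tested, 14.1% were higher and 9.57% lower than in epiblast cells, and 21.4% and 10.3% than in trophectoderm cells. Fgfr3 and Klb passed the filter only through their level in PrE cells and so had to be higher.

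Genes that ERK signalling induces differed in direction. Dusp4, a phosphatase of ERK, was at 95.6 CPM in PrE cells, against 25.3 CPM in epiblast cells and 20.0 CPM in trophectoderm cells, and Spry4, a feedback inhibitor, at 88.4 CPM in PrE cells, against 67.2 CPM in epiblast cells and 1.11 CPM in trophectoderm cells. Dusp6, another ERK phosphatase, was among the 10 genes furthest below both lineages, at 6.69 CPM in PrE cells, against 77.4 CPM in epiblast cells and 179 CPM in trophectoderm cells. Etv5, an ETS factor, was at 25.3 CPM in PrE cells, against 299 CPM in epiblast cells and 2.23 CPM in trophectoderm cells. Of 15 listed genes 12 passed, with 1 higher and 4 lower than in epiblast cells (median -0.01) and 9 higher and 2 lower than in trophectoderm cells (median 2.56).

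Of the PDGF receptor and its ligand, Pdgfra is a gene of the rule and helped to choose the PrE cells, so only the ligand is compared here. Pdgfa, a ligand of the receptor that Pdgfra encodes, was at 94.8 CPM in PrE cells, against 533 CPM in epiblast cells and 557 CPM in trophectoderm cells, with log2 ratios of -2.49 (-2.66 to -2.33) over epiblast and -2.55 (-2.72 to -2.40) over trophectoderm cells. It had a UMI in 32.3% of thinned PrE cells, 87.6% of epiblast cells and 83.9% of trophectoderm cells. Of 14 PDGF, VEGF and IGF genes only 3 passed the filter, with 1 higher and 1 lower than in epiblast cells and 0 higher and 1 lower than in trophectoderm cells.

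Nodal and its inhibitors differed in where they stood. Nodal was at 7.18 CPM in PrE cells, against 83.8 CPM in epiblast cells and 0 CPM in trophectoderm cells. Lefty2, an inhibitor that Nodal signalling induces, was at 129 CPM in PrE cells, against 439 CPM in epiblast cells and 1.11 CPM in trophectoderm cells, and Lefty1 at 89.1 CPM in PrE cells, against 48.0 CPM in epiblast cells and 0.278 CPM in trophectoderm cells. Cer1, a Nodal inhibitor of later anterior visceral endoderm, had 1 UMI in PrE cells. Smad2, which carries the signal to the nucleus, was at 85.4 CPM in PrE cells, against 37.0 CPM in epiblast cells and 37.3 CPM in trophectoderm cells. Of 18 pathway genes 9 passed, with 3 higher and 3 lower than in epiblast cells and 5 higher and 2 lower than in trophectoderm cells.

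The BMP list had 7 of 17 members past the filter, with 1 higher and 2 lower than in epiblast cells. Against trophectoderm cells 2 were higher and 1 lower. Of all genes tested, 14.1% were higher and 9.57% lower than in epiblast cells, and 21.4% and 10.3% than in trophectoderm cells. The share of BMP genes higher than in epiblast cells was near that of all genes tested. Bmp4 was at 6.44 CPM in PrE cells, against 83.8 CPM in epiblast cells and 1.67 CPM in trophectoderm cells, and the target Id3 at 33.4 CPM in PrE cells, against 475 CPM in epiblast cells and 54.8 CPM in trophectoderm cells. Id1, another target, was below the filter at 16.1 CPM in PrE cells, 1.13 CPM in epiblast cells and 0.835 CPM in trophectoderm cells. Of 17 Wnt antagonist and feedback genes 9 passed, with 1 higher and 3 lower than in epiblast cells, where Dkk1 was the higher gene. Sfrp1, a secreted Wnt inhibitor, was at 71.6 CPM in PrE cells, against 282 CPM in epiblast cells and 1.39 CPM in trophectoderm cells, and Notum, an enzyme that inactivates Wnt proteins, at 0.495 CPM in PrE cells, against 100.1 CPM in epiblast cells and 0 CPM in trophectoderm cells. Of the 9 genes, 5 were higher and 1 lower than in trophectoderm cells.

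**Figure D3:**
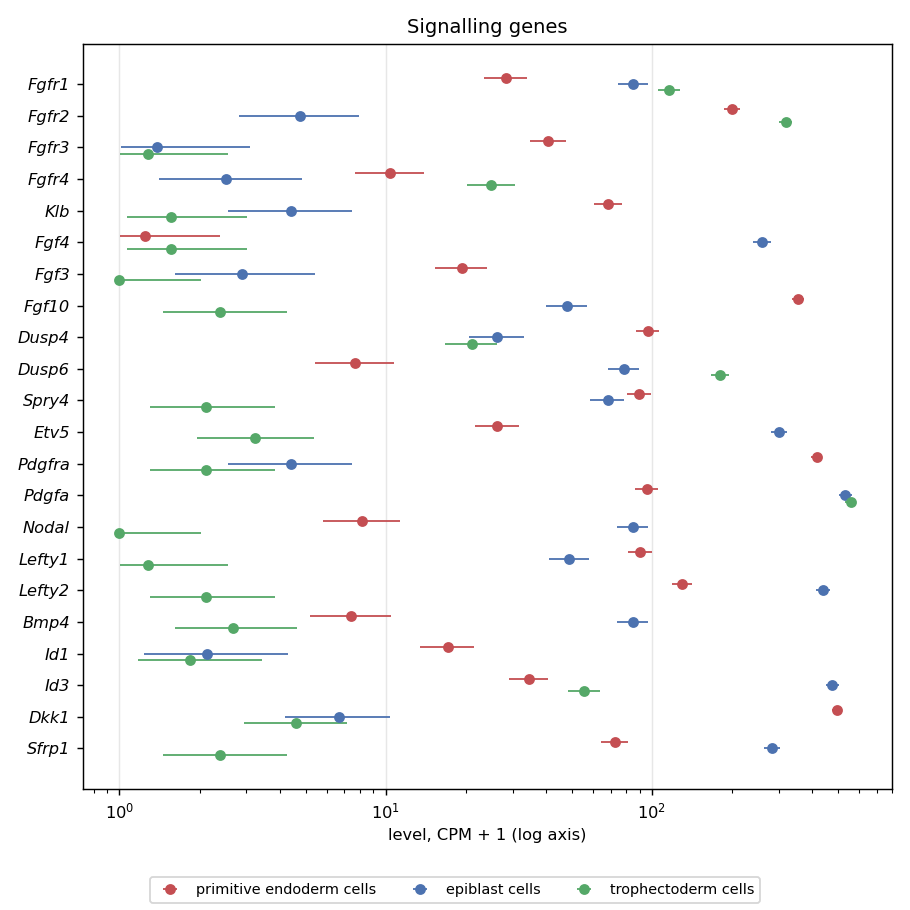
Level in CPM + 1 on a log axis of 22 signalling genes in PrE (red), epiblast (blue) and trophectoderm cells (green), with exact 95% counting intervals; Fgf4 and Pdgfra are genes of the rule. Fgfr2, Fgfr3, Klb, Fgf10 and Dkk1 stand well above epiblast cells in PrE cells, while Fgfr1, Pdgfa, Nodal, Bmp4 and Id3 stand below.

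Pluripotency genes were present in PrE cells at levels that differed from gene to gene. All 20 naive genes passed the filter, with 1 higher and 10 lower than in epiblast cells (median -0.98) and 11 higher and 2 lower than in trophectoderm cells (median 1.92). Prdm14 and Morc1 were at 0.248 and 2.23 CPM in PrE cells, against 84.2 and 257 CPM in epiblast cells. Esrrb was at 143 CPM in PrE cells, against 355 CPM in epiblast cells and 15.0 CPM in trophectoderm cells. Tbx3 was at 486 CPM in PrE cells, against 406 CPM in epiblast cells and 73.4 CPM in trophectoderm cells, Fbxo15 at 852 CPM in PrE cells, against 664 CPM in epiblast cells and 1009 CPM in trophectoderm cells, and Tcl1 at 172 CPM in PrE cells, against 139 CPM in epiblast cells and 1.95 CPM in trophectoderm cells. Klf5 was the gene higher than in epiblast cells, at 449.9 CPM in PrE cells, against 219.8 CPM in epiblast cells and 367 CPM in trophectoderm cells.

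Of 15 formative genes 12 passed, with 3 higher and 6 lower than in epiblast cells and 8 higher and 1 lower than in trophectoderm cells (medians -0.90 and 1.96). Foxd3 had 0 UMIs in PrE cells and 119 CPM in epiblast cells. The higher genes were Dnmt3a, at 292 CPM in PrE cells, against 32.1 CPM in epiblast cells and 44.2 CPM in trophectoderm cells, Dnmt3b, at 941 CPM in PrE cells, against 417 CPM in epiblast cells and 381 CPM in trophectoderm cells, and Sfmbt2, a Polycomb-group gene, at 70.8 CPM in PrE cells, against 18.5 CPM in epiblast cells and 83.7 CPM in trophectoderm cells. Dnmt3l, the cofactor of these methyltransferases, was at 409.8 CPM in PrE cells, 592 CPM in epiblast cells and 178 CPM in trophectoderm cells. Tet1, which oxidises methylated cytosine, was at 82.2 CPM in PrE cells, against 418 CPM in epiblast cells and 14.2 CPM in trophectoderm cells. The DNA methylation list had 12 of 13 genes past the filter, with 2 higher and 5 lower than in epiblast cells and 6 higher and 1 lower than in trophectoderm cells.

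Some genes set PrE and trophectoderm cells together against the epiblast. Besides Dab2 and Fgfr2 they included Timd2, a receptor for ferritin, at 345 CPM in PrE cells, against 3.02 CPM in epiblast cells and 299.9 CPM in trophectoderm cells. Ubash3b, a phosphatase that acts on receptor signalling, was at 60.2 CPM in PrE cells and 48.1 CPM in trophectoderm cells, and PrE cells were at least 53.1-fold above epiblast cells, which had 0 UMIs. Other genes set PrE and epiblast cells against the trophectoderm. Upp1, uridine phosphorylase, was at 225 CPM in PrE cells, against 189 CPM in epiblast cells and 1.39 CPM in trophectoderm cells, and Nefl, a neurofilament chain, at 505 CPM in PrE cells, against 431 CPM in epiblast cells and 3.06 CPM in trophectoderm cells. Car2, a carbonic anhydrase, was at 491 CPM in PrE cells, against 272 CPM in epiblast cells and 6.40 CPM in trophectoderm cells, and Dse, an epimerase of dermatan sulfate, at 159 CPM in PrE cells, against 122 CPM in epiblast cells and 0.835 CPM in trophectoderm cells.

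Several of the 10 genes furthest below both lineages follow. Aqp3, a water and glycerol channel, was at 6.44 CPM in PrE cells, against 127 CPM in epiblast cells and 311 CPM in trophectoderm cells. Tmsb4x, which binds actin monomers, was at 45.1 CPM in PrE cells, against 339 CPM in epiblast cells and 5725 CPM in trophectoderm cells. Lgals3, a galectin, was at 25.5 CPM in PrE cells, against 167 CPM in epiblast cells and 544 CPM in trophectoderm cells, and Nr5a2, a nuclear receptor, at 8.67 CPM in PrE cells, against 80.1 CPM in epiblast cells and 127 CPM in trophectoderm cells. Khdc3, a gene of the maternal cytoplasmic complex of oocytes and early embryos, was at 18.8 CPM in PrE cells, against 185 CPM in epiblast cells and 292 CPM in trophectoderm cells. Of 16 tight junction genes 13 passed, with 2 higher and 3 lower than in epiblast cells and 1 higher and 9 lower than in trophectoderm cells (medians 0.17 and -2.45). Cldn6, a claudin, was at 134 CPM in PrE cells, against 80.4 CPM in epiblast cells and 67.3 CPM in trophectoderm cells, and Cldn4 was at 1.73 CPM in PrE cells, against 41.2 CPM in epiblast cells and 959 CPM in trophectoderm cells. Of 23 polarity and cadherin genes 16 passed, with 6 higher and 3 lower than in epiblast cells and 3 higher and 5 lower than in trophectoderm cells, where the share of higher genes was near the 21.4% of all genes tested. Podxl, an apical sialomucin, was at 106 CPM in PrE cells, against 20.0 CPM in epiblast cells and 1.39 CPM in trophectoderm cells, and Epcam at 228 CPM in PrE cells, against 521 CPM in epiblast cells and 1785 CPM in trophectoderm cells.

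Metabolic and cell cycle lists are given next. Of all genes tested, 14.1% were higher and 9.57% lower than in epiblast cells, and 21.4% and 10.3% than in trophectoderm cells. Of 20 cholesterol synthesis genes past the filter, of 21 listed, 11 were higher and 0 lower against each of the other lineages (medians 1.10 and 1.12). Cyp51, the lanosterol demethylase, was at 204 CPM in PrE cells, against 42.3 CPM in epiblast cells and 45.6 CPM in trophectoderm cells, and Srebf2, the factor that induces the pathway, at 228 CPM in PrE cells, against 77.8 CPM in epiblast cells and 83.2 CPM in trophectoderm cells. Of 18 amino acid stress genes past the filter 5 were higher and 1 lower than in epiblast cells and 9 higher and 2 lower than in trophectoderm cells, with Asns, asparagine synthetase, at 455 CPM in PrE cells, against 358 CPM in epiblast cells and 53.7 CPM in trophectoderm cells. Glycolysis genes had medians of -0.36 and 0.63, with 2 of 14 higher and 2 lower than in epiblast cells, near the shares of all genes tested. Respiratory chain genes had medians of -0.14 and -0.50, with 0 of 22 higher in either comparison. All 18 G2/M genes passed, and 0 were 2-fold apart from epiblast cells. Over trophectoderm cells 13 were higher, with a list median of 1.14 beside 0.39 for the median gene. Among the 13 was Top2a, a topoisomerase of dividing cells, at 624 CPM in PrE cells, against 471 CPM in epiblast cells and 149 CPM in trophectoderm cells. S phase genes had medians of -0.62 and 0.65, and Mcm6 of the replicative helicase was at 221 CPM in PrE cells, against 467 CPM in epiblast cells and 140.5 CPM in trophectoderm cells.

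PrE cells differed among themselves, and the measures that follow describe cells of 1 library, which are not replicates. Over 4361 genes with a thinned mean of at least 0.2 UMIs, the median variance over mean was 1.10, and 80 genes reached 2. Genes of the rule were not among them. Of its PrE markers, Sox17 had 2.67 and Foxq1 2.16, while Gata4, Gata6 and Pdgfra were under 2. Lefty2 was the most variable, with a variance over mean of 8.94 and up to 24 UMIs in a cell. Before thinning it was seen in 17.6% of PrE cells, 66.7% of epiblast cells and 0.802% of trophectoderm cells. Cells with Lefty2 tended to have Lefty1 (Spearman correlation 0.45 across 331 cells, which share 1 library and 1 depth). In the 44 cells with at least 3 Lefty2 UMIs, Lefty1 stood at 218 against 60.4 CPM in the 350 cells with none. The epiblast score, which the rule limits in all PrE cells, had a median of 2 against 0 and a highest value of 8 against 13. Of epiblast genes Nodal stood at 8.98 against 5.82 CPM, Morc1 at 4.49 against 2.15 CPM and Otx2 at 4.49 against 2.45 CPM, each from few UMIs. Esrrb went the other way, at 119 against 145 CPM, as did Fgf4, at 0 against 0.307 CPM, and Foxd3 was at 0 in both. Of uptake genes Lrp2 stood at 103 against 277 CPM and Dab2 at 806 against 1291 CPM.

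Other variable genes fell into pairs and sets that went together across cells. Mt1 and Mt2, the metallothioneins, had a correlation of 0.75. Dab2 correlated with Cubn at 0.46, with Lrp2 at 0.41 and with Amn at 0.37. The chaperones Hspa5 and Hsp90b1 had a correlation of 0.65, the mitotic genes Ube2c and Cdk1 one of 0.63, and the sterol genes Sc4mol and Sqle one of 0.40. Sparc and Col4a1 had one of 0.46. The marker genes had correlations of 0.18 for Gata4 with Gata6 and 0.17 for Gata4 with Sox17. The cells were chosen on the summed UMIs of these markers, which can alter such correlations. The values are thus a description and are not to be set against those of other genes. Dab2 and Sparc, an uptake and a matrix gene, had a correlation of 0.08.

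**Figure D4:**
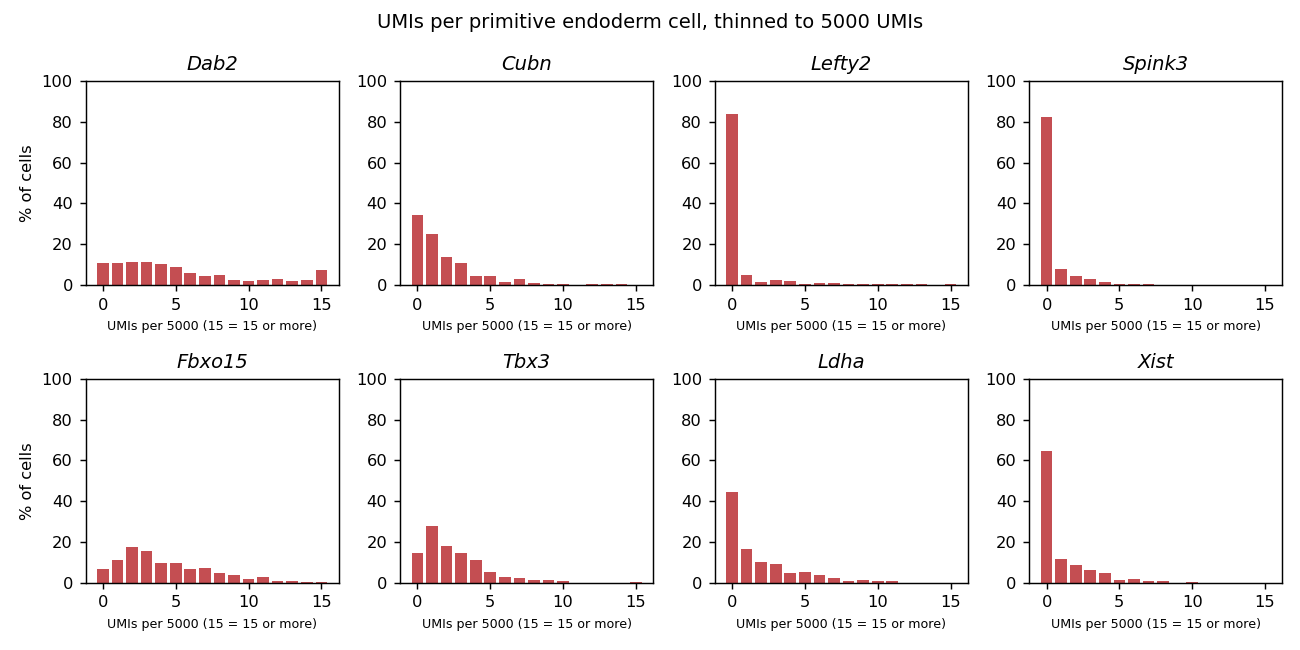
Percent of 331 PrE cells (vertical) by UMIs of 8 genes (horizontal) after each cell was thinned to 5000 UMIs; the last bar holds 15 or more. Lefty2 and Spink3 were at 0 in most cells, whereas Dab2 and Fbxo15 spread over a wide range.

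The main axis of variation took 5.63% of the variance of 500 genes and the next 3.35%. At one end lay Marcks, Pros1, Fbxo15, Fgf10, Pramel7 and Tbx3, and at the other Ldha, Cldn6, Aldoa, Calr, Tfec and Cubn. Cells were put into 3 equal groups by their place on it, and mean thinned UMIs are given from the Fbxo15 end to the other. They were 5.95, 4.15 and 2.67 for Fbxo15, 2.85, 2.05 and 0.838 for Fgf10 and 3.34, 2.39 and 1.59 for Tbx3. They were 0.973, 1.22 and 3.27 for Cubn, 3.83, 4.04 and 9.16 for Dab2, 0.409, 0.955 and 4.04 for Ldha and 0.0727, 0.109 and 1.55 for Cldn6. They were 3.50, 3.68 and 2.95 for Gata4 and 1.41, 1.04 and 0.667 for Fgfr2. The rule's other markers differed along the axis. Sox17, at 2.7, 2.05 and 1.09, and Pdgfra, at 2.7, 2.55 and 1.39, fell away from the Fbxo15 end. Gata6, at 3.65, 3.85 and 3.17, and Foxq1, at 6.6, 5.5 and 6.4, changed less. The rule's markers were left out of the genes that made the axis. The values of Fbxo15, Fgf10, Tbx3, Cubn, Dab2, Ldha and Cldn6 describe genes that made it. Position towards the Fbxo15 end had a correlation of -0.45 with the UMIs of the cell before thinning and of 0.46 with its mitochondrial share, and their part in the axis was not tested. The 40 cells with at least 3 UMIs of Spink3 before thinning were set against the 332 cells without Spink3. Cubn stood at 919 against 268 CPM, Hhex at 197 against 64.6 CPM and Fbxo15 at 411 against 964 CPM. The cells with Spink3 were deeper, with a median of 12833 against 8919.5 UMIs.

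Sex could be read from Y-linked genes. A Y-linked UMI was found in 176 PrE cells, 102 epiblast cells and 126 trophectoderm cells. Of PrE cells without one, 59.0% (52.6 to 65.2) had Xist, the RNA that silences an X chromosome, against 4.55% (1.98 to 8.76) of those with one. Epiblast cells without a Y-linked UMI had Xist in 2.00% (0.414 to 5.73), and trophectoderm cells in 54.4% (48.0 to 60.7). The X chromosome gave 3.08% of the X and autosomal UMIs in PrE cells without Y-linked UMIs, against 3.99% in such epiblast cells and 3.57% in such trophectoderm cells. In cells with Y-linked UMIs it gave 2.66% in PrE cells, 2.60% in epiblast cells and 3.34% in trophectoderm cells. The 102 PrE cells with neither Xist nor Y-linked UMIs were shallow, with a median of 3266.5 UMIs.

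The same rule chose 3511 of 5328 embryoid cells, 65.9%, with a median of 5198 UMIs. Library, stage, culture and cell line cannot be told apart in what follows. Of 8547 genes with a mean of at least 10 CPM over both profiles, 11.3% were at least 2-fold higher in blastocyst PrE cells and 16.5% at least 2-fold lower. The median gene stood at -0.05. Of the rule's markers, Gata6 was at 711 CPM in blastocyst PrE cells and 187 CPM in embryoid cells, Foxq1 at 1281 CPM in blastocyst PrE cells and 665 CPM in embryoid cells, Sox17 at 370.2 CPM in blastocyst PrE cells and 412 CPM in embryoid cells and Gata4 at 673 CPM in blastocyst PrE cells and 605 CPM in embryoid cells.

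The genes furthest higher in blastocyst PrE cells were near or at 0 in embryoid cells. Dnmt3l was at 409.8 CPM in blastocyst PrE cells and 0.531 CPM in embryoid cells. Tcl1 and Havcr1, a phosphatidylserine receptor, had 0 UMIs in embryoid cells and were at least 1190.0-fold and 922-fold higher in blastocyst cells. The connexin gene Gjb5 was at 260.2 CPM in blastocyst PrE cells and 0.193 CPM in embryoid cells. Xist was at 184 CPM in blastocyst PrE cells and 0.386 CPM in embryoid cells, and Ddr2, a collagen receptor, at 152 CPM in blastocyst PrE cells and 0.241 CPM in embryoid cells. Of 17 naive pluripotency genes past the filter 15 were higher and 0 lower, beside 11.3% and 16.5% of all genes tested (median 3.65). They were not all near 0 in embryoid cells, as with Klf5, at 449.9 CPM in blastocyst PrE cells and 52.9 CPM in embryoid cells, and Sall4, at 569 CPM in blastocyst PrE cells and 320.4 CPM in embryoid cells. Fgf10 was at 354 CPM in blastocyst PrE cells and 2.51 CPM in embryoid cells, Fgfr2 at 199 CPM in blastocyst PrE cells and 38.8 CPM in embryoid cells and Dkk1 at 494 CPM in blastocyst PrE cells and 23.9 CPM in embryoid cells.

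Other genes were lower in blastocyst PrE cells. Igfbp1, which binds insulin-like growth factors, had 0 UMIs, and embryoid cells were at 371 CPM, so blastocyst cells were at least 499-fold lower. Frzb, a secreted Wnt inhibitor, and Nrk, a kinase, also had 0 UMIs and were at least 119-fold and 139.7-fold lower. Flt1, a VEGF receptor, was at 6.93 CPM in blastocyst PrE cells and 1247 CPM in embryoid cells, and Spink3 at 78.5 CPM in blastocyst PrE cells and 858 CPM in embryoid cells. Of 16 visceral endoderm genes past the filter 1 was higher and 12 lower (median -2.35), and of 18 imprinted genes 3 were higher and 14 lower (median -2.38). Of 13 immediate early genes, which dissociation is known to induce, 1 was higher and 12 lower (median -2.51). Their part in the other differences was not tested. Basement membrane genes had a median of -0.38, with 3 of 21 higher and 7 lower, and collagen folding genes one of 0.25. Col4a1 was at 2441 CPM in blastocyst PrE cells and 4542 CPM in embryoid cells, Lama1 at 996 CPM in blastocyst PrE cells and 559 CPM in embryoid cells and Cubn at 389.7 CPM in blastocyst PrE cells and 125 CPM in embryoid cells.

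**Figure D5:**
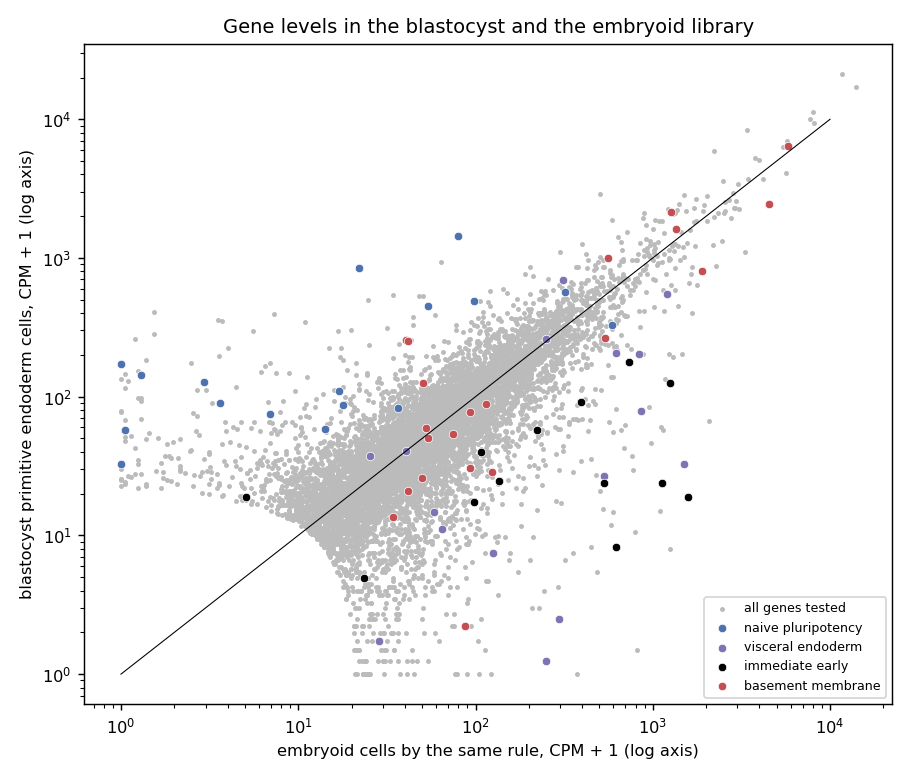
Level in CPM + 1 of 8547 genes in blastocyst PrE cells (vertical) and in embryoid cells chosen by the same rule (horizontal), both on log axes, with the line of equal level and 4 gene lists in colour. Most naive pluripotency genes (blue) lie above the line, and most visceral endoderm (purple) and immediate early genes (black) below it.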

How the data were processed

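Per the labels' protocols, polyadenylated RNA of single cells was read in 1 library a group with the BD Rhapsody whole transcriptome kit. The deposited files hold raw UMI counts per gene symbol and barcode; 11047555 UMIs in 1288 barcodes for the blastocyst and 28923930 in 5546 for the embryoid. Per the submitters' processing notes, STAR 2.7.1a, featureCounts 1.6.4 from Subread, UMI-tools 1.0.1 and bcl2fastq 2.19.1.403 were used with build mm10. The annotation, strand setting and cell calling were not given in the sources used here. Without a stated strand setting, reads of overlapping genes cannot be told apart.

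Barcodes with at least 1000 UMIs, 500 genes and at most 25% mitochondrial UMIs were kept. The libraries share 9 barcodes, 2 of them PrE cells. Scrublet (scanpy 1.11.5) called 17 blastocyst barcodes doublets (1.55%), 0 of them PrE cells, and 0 embryoid barcodes, so it did not work there; calls were left out only as an alternative. UMIs were summed per class and scaled to CPM. Genes of the rule were not tested and were left out of the ranks and of the variation among cells. Mitochondrial and ribosomal protein genes were tested but left out of the ranks of named genes and of the variation among cells. Levels have exact Poisson, shares Clopper-Pearson and ratios exact conditional binomial 95% intervals, for counting error only. A profile at 0 was set to a floor of 3 UMIs over the profile, also in list medians. edgeR 4.0.16 gave TMM factors only, and scipy 1.17.1, numpy 2.4.6, pandas 2.3.3 and matplotlib 3.10.9 ran in Python 3.11.15.

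The 34 gene lists hold 583 distinct genes, of which 570 matched, 8 by an older symbol. Members and lists were chosen with earlier results of these data known. Named genes were the 15 highest and 10 lowest against both lineages, 5 in each group like 1 lineage, 15 most variable and 8 in each direction between libraries, at 50 CPM or more in the higher profile; other named genes come from the lists. Some genes that these rules pick are not reported here.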

Additional observations from a re-analysis of the deposited data

How the results depend on the processing

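No paired analysis was possible because each group has 1 library, and no replicate could be left out. The share of PrE cells ran from 35.46% with a score of at least 10 to 47.85% with at most 10% mitochondrial UMIs (38.74% as reported). Adding 10 CPM gave 723 genes higher and 507 lower in PrE than epiblast cells, 1051 higher than in trophectoderm cells and 635 higher in blastocyst than embryoid PrE cells. A mean of at least 1 CPM gave 2126 and 1846 genes against epiblast, 3325 and 1578 against trophectoderm, and 1920 and 2794 against embryoid cells (higher, lower); at least 50 CPM gave 398 and 286, 611 and 378, and 420 and 503. These filters change how many genes are tested (8284 and 8547 as reported). Genes higher than in trophectoderm cells numbered 1088 with median of ratios and 1172 with TMM scaling, against 1771 by totals. List medians at least 1 from 0 over epiblast or trophectoderm cells numbered 25, and 16 with 10 CPM added. Genes with a variance over mean of at least 2 numbered 80, and 36 when thinned to 3000 UMIs. The trophectoderm list's median over embryoid cells, 1.42, turned to -1.03 with a mean of at least 1 CPM and -1.57 with at least 50 CPM; the cause was not tested beyond the change in genes tested. Of the ratios of named genes 2761 values moved by less than their counting interval, 337 moved by more and 0 reversed. Depth limits low genes: a gene at 0 in all PrE cells is bounded only by the floor of 3 UMIs.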

Other observations

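Several lists not described above were read the same way. Of 21 cell sorting and guidance genes 11 passed the filter, with 4 higher and 0 lower in PrE than in epiblast cells and 5 higher and 2 lower than in trophectoderm cells. Pcdh19, a protocadherin, was at 70.6 CPM in PrE cells, with 0 UMIs in trophectoderm cells and a log2 ratio of 2.69 (2.13 to 3.29) over epiblast cells, and Efnb1, an ephrin ligand, was at 21.0 CPM in PrE cells, 1.13 CPM in epiblast cells and 73.4 CPM in trophectoderm cells. Of 19 retinoid genes 6 passed, with 4 higher and 1 lower than in epiblast cells. Rdh11, a retinol dehydrogenase, was at 79.5 CPM in PrE cells, 10.2 CPM in epiblast cells and 23.1 CPM in trophectoderm cells, Rdh10 at 55.5 CPM in PrE cells, 12.8 CPM in epiblast cells and 18.1 CPM in trophectoderm cells, and Cyp26a1, which degrades retinoic acid, at 26.2 CPM in PrE cells, 0.378 CPM in epiblast cells and 7.51 CPM in trophectoderm cells. Rarg, a retinoic acid receptor, had 0 UMIs in PrE cells and 64.2 CPM in epiblast cells.

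Of 25 imprinted genes 16 passed, with 4 higher and 4 lower than in epiblast cells and 4 higher and 7 lower than in trophectoderm cells. Igf2 was at 65.4 CPM in PrE cells, 4.53 CPM in epiblast cells and 214 CPM in trophectoderm cells, and H19 at 41.8 CPM in PrE cells, 7.55 CPM in epiblast cells and 1564 CPM in trophectoderm cells. Of 17 trophectoderm genes outside the rule that passed, of 20 listed, 5 were higher and 8 lower than in epiblast cells, and 0 were higher and 15 lower than in trophectoderm cells. Eomes, a factor that trophectoderm and later endoderm both use, was at 58.4 CPM in PrE cells, 20.8 CPM in epiblast cells and 466 CPM in trophectoderm cells, and seen in 23.6% of thinned PrE cells, 11.6% of epiblast cells and 78.8% of trophectoderm cells. Of 15 apoptosis and p53 genes past the filter 0 were higher and 4 lower than in epiblast cells, with Trp53 at 109 CPM in PrE cells, 359 CPM in epiblast cells and 49.0 CPM in trophectoderm cells. Of 14 oocyte and 2-cell-like genes none passed the filter.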
